A study of Mus musculus with 16 samples.

Results

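The genes described here are the neuregulins *Nrg1*, *Nrg2*, *Nrg3* and *Nrg4* and the ErbB receptors *Egfr*, *Erbb2*, *Erbb3* and *Erbb4*. They were taken by gene symbol from the RNA part of each library, which gave 8 of the 32285 genes counted. Neuregulins are EGF-like ligands that are made as membrane proteins, cut by proteases and bound by ErbB3 or ErbB4 on neighbouring cells, where binding pairs the receptors and switches on their kinase. ErbB2 binds no ligand itself and serves as a partner, ErbB3 has almost no kinase activity of its own, and Egfr binds other EGF-like ligands. In the forebrain ErbB4 is known as a receptor of GABAergic interneurons, and the intracellular part of type III Nrg1 can be released by γ-secretase and move to the nucleus of the neuron that makes the ligand.

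Nuclei came from the microdissected dentate gyrus (DG) of 4 WT mice and 4 mice homozygous for the V321L mutation, with 2 females and 2 males of each genotype and 1 library per mouse that measured RNA and accessible chromatin in the same nuclei. V321L is an amino acid change in the membrane-spanning part of Nrg1, present in every cell of the animal and not limited to one cell type. The study used juvenile to adult mice of both sexes, and the age and the strain of those sequenced are not given in the sources used here. The mice are named WT F1, F2, M1 and M2 and V321L F1, F2, M1 and M2 by sex and number, and values below are given in that order.

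After filtering, 16406 nuclei were kept. Each WT mouse gave between 1774 and 3633 of them, and each V321L mouse 1465 to 1987. Each nucleus was put in a class by marker genes that do not include the 8 genes. There were 10020 granule cells (GCs), 469 GABAergic neurons, 1728 other excitatory neurons, 817 astrocytes or radial glia, 694 oligodendrocytes, 294 oligodendrocyte precursors (OPCs) and 330 microglia. Each of these classes led in its own marker list, with a median of 18 GC-marker UMIs per GC and of 3 GABAergic-marker UMIs per GABAergic neuron. A UMI is 1 counted RNA molecule. Levels are in CPM, the UMIs of a gene over all UMIs of the class in a mouse, scaled to the same total in every mouse and class. Since RNA was counted without correction for length, levels are compared between classes and mice but not between genes.

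The libraries of the genotypes differed in more than the mutation. The median UMI count per nucleus ran from 1096 to 1923 over the WT libraries and from 2680 to 4146 over the V321L libraries. RNA of ribosomal proteins made up 0.0465% to 0.107% of the GC UMIs of WT mice and 0.818% to 1.70% of those of V321L mice, and mitochondrial RNA 0.206% to 0.272% against 0.594% to 1.24% of all UMIs. GCs with a UMI of a GABAergic marker were 5.55% to 8.70% of GCs in WT and 17.8% to 22.9% in V321L mice. These values did not overlap between the genotypes, so genotype and RNA quality cannot be told apart in any comparison of the genotypes below. Of the barcodes, 161 occurred in more than 1 library.

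The start regions of *Erbb4* and *Egfr* are shown because their chromatin is set beside their RNA below. Each is the 250 bases before an annotated start (build GRCm38.p6), with a peak in 4 libraries for *Erbb4* and 3 for *Egfr*, and capitals mark a GC box. The RefSeq span of *Erbb4* reaches to base 69108576, so its stretch lies inside that span. *Erbb4* lies at chr1:69108060-69108309 on the minus strand and *Egfr* at chr11:16751953-16752202 on the plus strand.
Erbb4: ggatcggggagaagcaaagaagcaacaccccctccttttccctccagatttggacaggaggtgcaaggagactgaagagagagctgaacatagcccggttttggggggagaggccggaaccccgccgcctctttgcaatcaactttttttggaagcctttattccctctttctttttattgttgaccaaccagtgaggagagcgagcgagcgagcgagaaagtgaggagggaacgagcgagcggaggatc
Egfr: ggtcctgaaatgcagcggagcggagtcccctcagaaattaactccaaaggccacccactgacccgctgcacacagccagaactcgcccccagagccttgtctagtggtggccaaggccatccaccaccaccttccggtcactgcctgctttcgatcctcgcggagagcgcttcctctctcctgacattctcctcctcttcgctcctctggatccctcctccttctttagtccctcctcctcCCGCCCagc
Of the motifs GGGCGG (GC box), TATAAA and CCAAT, searched on both strands, the *Erbb4* stretch holds none and the *Egfr* stretch 1 GC box, at its 3′ end. Among 32851 mouse promoters of this length, 32.7% hold GGGCGG, 12.4% TATAAA and 33.8% CCAAT. RefSeq promoters were matched for 5 of the 8 genes. The *Nrg3*, *Nrg4* and *Erbb2* stretches hold no GC box, and *Erbb2* holds 1 CCAAT.

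Among the ligands, *Nrg3*, a neuregulin made mainly in the nervous system, was a gene of all neurons. Its level averaged 10241 ± 582 CPM (SD, n = 4) in other excitatory neurons of WT mice, 7767 ± 706 in GCs and 7169 ± 524 in GABAergic neurons, and 2687 ± 695 in OPCs. Other excitatory neurons had the highest level in 8 of 8 mice. WT oligodendrocytes were at 141 ± 100 CPM (n = 3), where free RNA in the suspension alone would give between 31.7 and 87.2 CPM. Pyramidal neurons of CA3 type, at 10785 ± 945 CPM in WT mice, and mossy type neurons, at 10099.6 ± 529, were at the top among excitatory sub-types.

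*Nrg1*, the ligand that carries the mutation, was spread over GCs, OPCs and a few small classes. In WT mice OPCs held 767, 837, 1217 and 1537 CPM and GCs 844, 879, 717 and 688 CPM. These ranges overlap. GABAergic neurons of WT mice lay lower, at 192, 341, 212 and 373 CPM, and GCs were above GABAergic neurons in 8 of 8 mice.

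The highest levels of *Nrg1* were in small classes. Cajal-Retzius cells, early-born neurons of the outer molecular layer, held 2312, 3867, 2985 and 3976 CPM in the 4 V321L mice, and too few nuclei per WT mouse for a value of their own (22 nuclei in all). Over all mice, 75 Cajal-Retzius nuclei held 395 *Nrg1* UMIs, which is 3174 CPM with an exact 95% counting interval of 2868 to 3503. The 29 nuclei put in the class of newly formed oligodendrocytes held 1915 CPM (1619 to 2249.6), against 65.0 ± 55.9 CPM over 7 mice in oligodendrocytes. Of their 148 UMIs 40 were in 1 nucleus, and without it they held 1453 CPM. Their own marker list did not lead, with a median of 4 UMIs against 19 of oligodendrocyte and 6 of OPC markers. No cluster was given that name when classes were taken from clusters, so the clusters could not check these 29 nuclei. Intervals of this kind cover counting error only.

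*Nrg2*, a neuregulin with its own receptor preferences among ErbB3 and ErbB4, was highest in GCs in 6 of 8 mice, at 293, 359, 319 and 276 CPM in WT and 255, 273, 258 and 249 CPM in V321L mice. OPCs followed with a mean over the 8 mice of 228 ± 156 CPM and GABAergic neurons with 195 ± 38.1 CPM. Oligodendrocytes had almost none, with at most 3 UMIs in a mouse. *Nrg4*, a ligand of ErbB4 best known from fat tissue, was rare everywhere, with 11.8 ± 3.81 CPM in other excitatory neurons, 11.3 ± 6.44 in GABAergic neurons and 11.2 ± 3.72 in GCs, levels that overlap.

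Among the receptors, *Erbb4* was a gene of GABAergic neurons and of the oligodendrocyte lineage. GABAergic neurons held 14285, 11332, 8884 and 11992 CPM in WT and 8614, 10617, 7904 and 7568 CPM in V321L mice, the highest class in 8 of 8 mice. OPCs held 6654, 4484, 3714 and 4435 CPM in WT mice, and oligodendrocytes 4181, 5965 and 3761 CPM in the 3 WT mice with enough nuclei. All of these lay far above WT GCs, at 10.8, 41.0, 11.9 and 28.7 CPM. At least 1 *Erbb4* UMI was seen in 88.3% of 299 WT GABAergic neurons, in 97.5% of 122 WT OPCs and in 1.92% of 6261 WT GCs.

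The low GC level was held by few nuclei. Of 355 *Erbb4* UMIs in WT GCs, 187 were in 10 nuclei and 101 in a single nucleus of WT F2. Free RNA would give 3.08 to 10.1 CPM of *Erbb4* in GCs of WT mice and 0.879 to 2.86 CPM in those of V321L mice. Set against the free RNA of their own library, the GC values were 3.511, 10.11, 1.6003 and 2.829 times as high in WT and 2.793, 2.228, 1.226 and 1.496 times as high in V321L mice. V321L M1 and M2 and WT M1 lay closest to that level.

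Within GABAergic neurons, *Erbb4* was higher in the type marked by genes of the medial ganglionic eminence (MGE, the origin of parvalbumin and somatostatin cells) than in the type marked by genes of the caudal one (CGE). MGE type neurons averaged 11663 CPM and CGE type neurons 6939 CPM, with the same direction in 8 of 8 mice (two-sided exact sign-flip test, p = 0.00781, not adjusted for the 6 genes compared). This is the smallest p that 8 mice allow. *Nrg2* was also higher in MGE type neurons, 225 against 130 CPM, in 8 of 8 mice (exact p = 0.00781). *Nrg1* was higher in CGE type neurons in 7 of 8 mice, 356 against 230 CPM (exact p = 0.0234). *Nrg3*, *Nrg4* and *Egfr* had p between 0.289 and 0.578 in the same exact tests, and *Erbb2* and *Erbb3* had no UMI in either type.

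*Egfr*, the receptor of EGF and its relatives, was highest in astrocytes or radial glia in 7 of 8 mice, at 400.0, 256, 603 and 366 CPM in WT and 210.2, 245, 176 and 146 CPM in V321L mice. GABAergic neurons followed at 142 ± 69.6 CPM over 8 mice, and GCs were at 7.69 ± 3.39 CPM. No *Egfr* UMI was seen in oligodendrocytes. *Erbb3*, a receptor known from myelinating glia, was highest in oligodendrocytes in all 7 mice with enough of these nuclei. It was at 94.8 ± 57.7 CPM there, with OPCs at 38.5 ± 32.6 CPM over 8 mice. It was not seen in GABAergic neurons or microglia. *Erbb2*, the shared partner receptor, was close to undetected, with at most 2.40 CPM as a mean of any of the 7 classes and 1 UMI in all 10020 GCs.

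The classes were ordered by level for each gene and each was compared with the next, which gave 48 pairs. None passed the exact sign-flip test after adjustment over the pairs, 14 had an unadjusted p under 0.05, and the smallest adjusted p was 0.0682, reached by 11 pairs. The smallest p of this test is 0.00781 with 8 mice and 0.0156 with 7, so a single pair cannot pass alone. Pairs at that value with one direction in 8 of 8 mice included other excitatory neurons over GCs and GABAergic neurons over OPCs for *Nrg3*, GCs over GABAergic neurons for *Nrg1*, and GABAergic neurons over astrocytes for *Nrg2*. Among the neighbours whose levels crossed between mice were OPCs, other excitatory neurons and GCs for *Nrg1*, GCs and GABAergic neurons for *Nrg3*, and all neuron classes for *Nrg4*.

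**Figure D1:**
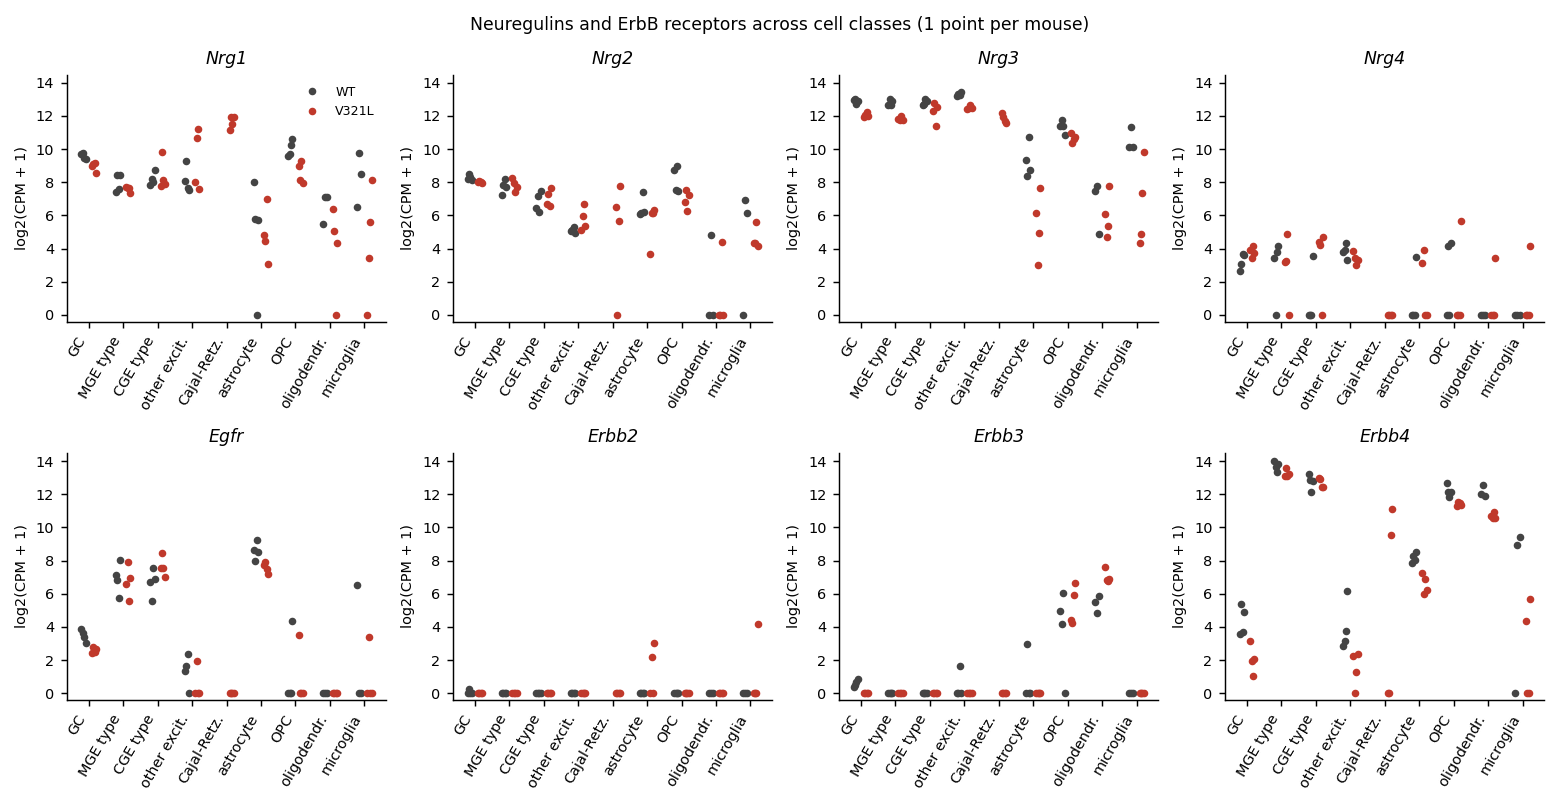
Level of each gene as log2(CPM + 1), 1 point per mouse with at least 10 nuclei of the class, WT in grey and V321L in red; GABAergic neurons are split into MGE and CGE type. *Erbb4* fills GABAergic neurons, OPCs and oligodendrocytes and is low in GCs, while *Nrg3* is high in every neuron class and *Erbb2* is at or near 0 throughout.

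For each gene, the genes most like it across the means of 8 classes were found by Pearson r of log2(CPM + 1) among 13670 candidates. *Nrg3* was nearest to *Kcnb2* (r = 0.995), *Ccdc148* and *Rims1*. *Nrg1* was nearest to *Slc41a2* (r = 0.985), *Khdrbs2* and *D630045J12Rik*, and *Nrg2* to *Klhl32* (r = 0.977), *Zdhhc21* and *Vstm2b*. *Nrg4* was nearest to *Mark1* (r = 0.988), *Osbpl6* and *Car10*.

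Of the receptors, *Erbb4* was nearest to *Ehmt1* (r = 0.970), *Minar1* and *Gpsm1*. *Erbb3* was nearest to *Cyp3a13* (r = 0.993), *Bcas1os2* and *Chst3*, and *Egfr* to *Gm48226* (r = 0.921), *Gm20721* and *Hapln1*. *Erbb2* was nearest to *Trim30d*, *Gm11998* and *Ggta1*, at a level too low to describe a pattern. These values rest on 8 points that share their libraries and are descriptions.

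Chromatin at the start site was read as ATAC counts in peaks within 1 kb of it, scaled like CPM to all counts in peaks, in the libraries that had such a peak. For *Erbb4*, 4 libraries had one, and the mean was 36.7 in OPCs, 35.1 in oligodendrocytes and 26.6 in GABAergic neurons, against 2.11 in GCs, 2.85 in other excitatory neurons and 0 in microglia. The lowest GABAergic value, 16.0, lay above the highest GC value, 2.47. The accessibility of OPCs and oligodendrocytes overlapped with that of GABAergic neurons, while their *Erbb4* RNA was below that of GABAergic neurons in every mouse.

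*Erbb3* had a peak in 6 libraries, with 47.1 in oligodendrocytes (0 to 99.0 over 5 libraries), 17.3 in OPCs and 7.67 in GCs. *Egfr* had one in 5 libraries, with 18.4 in astrocytes (0 to 47.9) and 4.53 in GCs (2.85 to 5.77), ranges that overlap. *Erbb2* had one in 5, with 26.1 in astrocytes and 4.17 in GCs. The *Erbb2* astrocyte values, between 18.0 and 39.2, all lay above the GC values, between 3.37 and 4.57, although its RNA was close to 0 in both.

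For *Nrg3*, with a peak in 4 libraries, the mean was 49.98 in OPCs, 30.8 in GABAergic neurons, 27.8 in GCs and 1.83 in astrocytes. The OPC mean rests on 27 counts and ranged from 0 to 112. That range spans those of GABAergic neurons (18.9 to 38.4) and GCs (17.9 to 48.0). The start sites listed for *Nrg1* extend over much of the gene and hold between 8 and 36 peaks per library, which gave 210 in Cajal-Retzius cells, 126 in other excitatory neurons, 114 in GCs, 113 in OPCs and 6.97 in microglia. The Cajal-Retzius value rests on 34 counts in 4 libraries and the microglia value on 7 libraries. The other values rest on 8, so these means cover different sets of libraries. Among the 7 main classes, the class with the highest mean accessibility was the class with the highest mean RNA for 2 of the 8 genes, *Egfr* and *Erbb3*. For both, the accessibility of that class ranged down to 0 over libraries. No test was made, since peaks were called in each library separately.

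**Figure D2:**
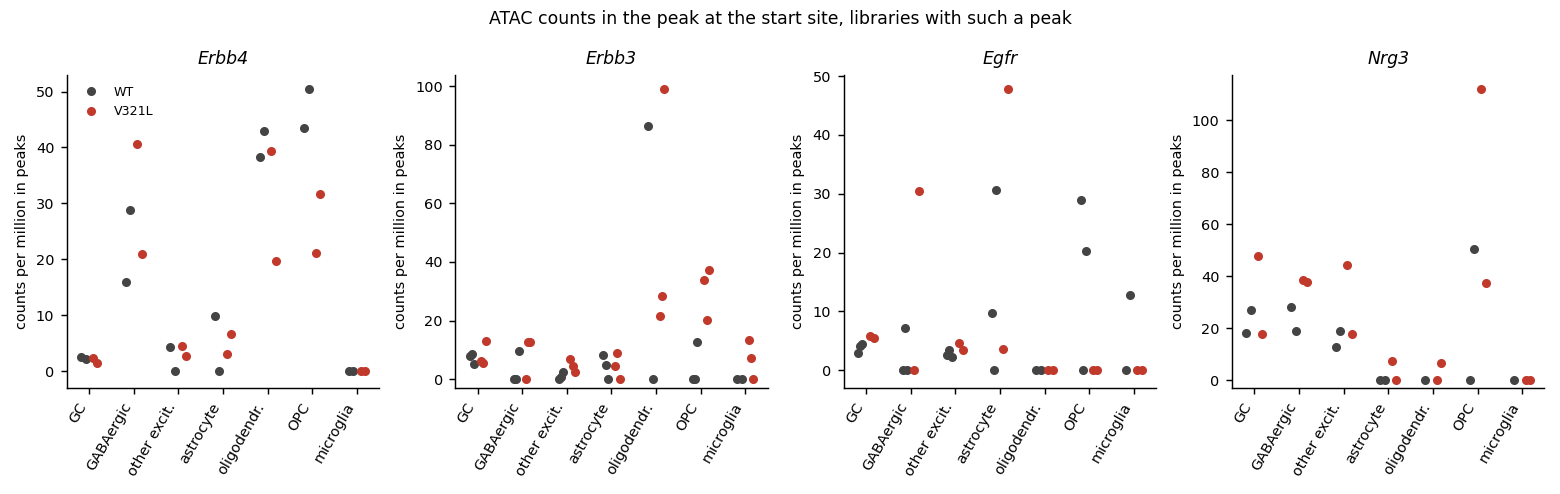
ATAC counts in the peak at the start site, scaled to all counts in peaks like CPM, 1 point per library with such a peak, for 4 of the genes in 7 classes; WT in grey, V321L in red. *Erbb4* is open in GABAergic neurons, oligodendrocytes and OPCs and not in GCs. *Nrg3* is open in neurons and, by its mean, in OPCs, where it ranged down to 0.

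Between genotypes, the question was whether RNA of the ligands and receptors differed in mice carrying the mutation. In GCs, 6 of the 8 genes had enough counts to be tested, and 5 were lower in V321L mice, none higher. In this comparison 70.7% of all 12209 genes tested were called, 32% as lower and 38.7% as higher, by edgeR's quasi-likelihood test on UMIs summed per mouse with Benjamini-Hochberg adjustment at 0.05. The median log2 fold change was -1.22 over the 6 genes and 0.11 over all genes. UMIs count the RNA of *Nrg1* and do not show the mutation itself. In whole-class sums, fewer cells of a type and less RNA per cell cannot be told apart. The share of all genes whose groups did not overlap is not given here. Groups said below not to overlap therefore do not set these genes apart from the others.

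*Nrg1* in GCs fell from 844, 879, 717 and 688 CPM in WT to 496, 545, 570.4 and 375 CPM in V321L mice. The groups did not overlap. The log2 fold change was -1.11 ± 0.16 (SE; edgeR, adjusted p = 2.49e-05). *Nrg3* fell from 7989.8, 8480.1, 6799 and 7798 CPM to 3941, 4289, 4741 and 4025 CPM, again without overlap and at a log2 fold change of -1.33 ± 0.15 (edgeR, adjusted p = 3.33e-06).

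*Nrg2* values of WT GCs, 276 to 359 CPM, were above those of V321L GCs, 249 to 273 CPM, with a log2 fold change of -0.73 ± 0.12 (edgeR, adjusted p = 1.07e-04). *Nrg4* was not called (0.14 ± 0.26, edgeR, adjusted p = 0.63), with 5.26, 7.46, 11.9 and 11.4 CPM in WT and 14.0, 9.83, 17.2 and 12.3 CPM in V321L GCs. The *Nrg4* groups overlapped.

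The receptors in GCs were low in both genotypes. *Egfr* was at 13.6, 11.2, 9.38 and 7.25 CPM in WT and 4.28, 6.01, 4.58 and 5.27 CPM in V321L mice (log2 fold change -1.50 ± 0.25, edgeR, adjusted p = 1.14e-04). *Erbb4* was at 10.8, 41.0, 11.9 and 28.7 CPM in WT and 7.98, 2.91, 1.08 and 3.16 CPM in V321L mice (log2 fold change -3.21 ± 0.51, edgeR, adjusted p = 7.26e-05). Neither pair of groups overlapped. The free RNA of the libraries moved the same way, with 143 to 273 CPM of *Erbb4* in WT and 25.9 to 44.9 CPM in V321L libraries. Without WT F2, whose GCs included the nucleus with 101 *Erbb4* UMIs, the fold change was -2.70, and in GCs with no UMI of a GABAergic marker it was -2.91. *Erbb2* and *Erbb3* had too few UMIs for a test.

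**Figure D3:**
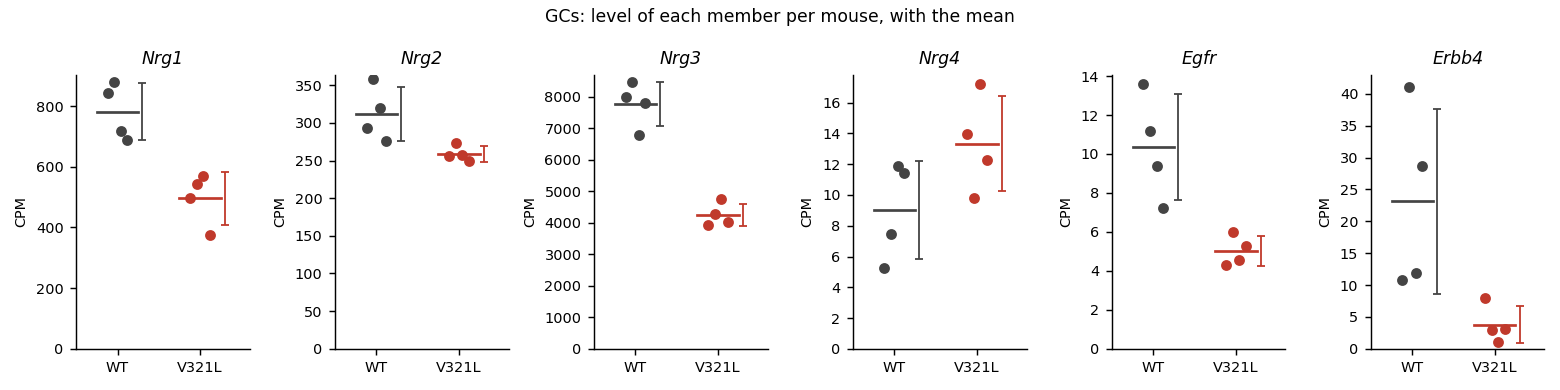
CPM in GCs for each mouse (points), with the mean (line) and SD (bar) of 4 mice, for the 6 genes tested. V321L mice lie below all WT mice for *Nrg1*, *Nrg2*, *Nrg3*, *Egfr* and *Erbb4*, and the groups overlap for *Nrg4*. Of all genes tested in GCs, 70.7% were called.

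The genotype difference in GCs moved with the span of the gene. Of 214 genes that span over 500 kb, 210 (98.1%) were lower in V321L GCs and 0 higher, with a median log2 fold change of -1.22. Of the genes of 100 to 500 kb 78.3% were lower, and of those under 100 kb 21.1% were lower and 47.2% higher. *Nrg1* spans 1084 kb, *Nrg3* 1108 kb and *Erbb4* 1077 kb, so the fold changes of *Nrg1* and *Nrg3* lie near the median of their length class and that of *Erbb4* lies below it. *Nrg2* spans 183 kb and *Egfr* 162 kb, where the median was -0.78, and *Nrg4* spans 63.4 kb, where it was 0.38. A length was found for 94.6% of the genes tested. The part of length or RNA quality in these differences was not tested.

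**Figure D4:**
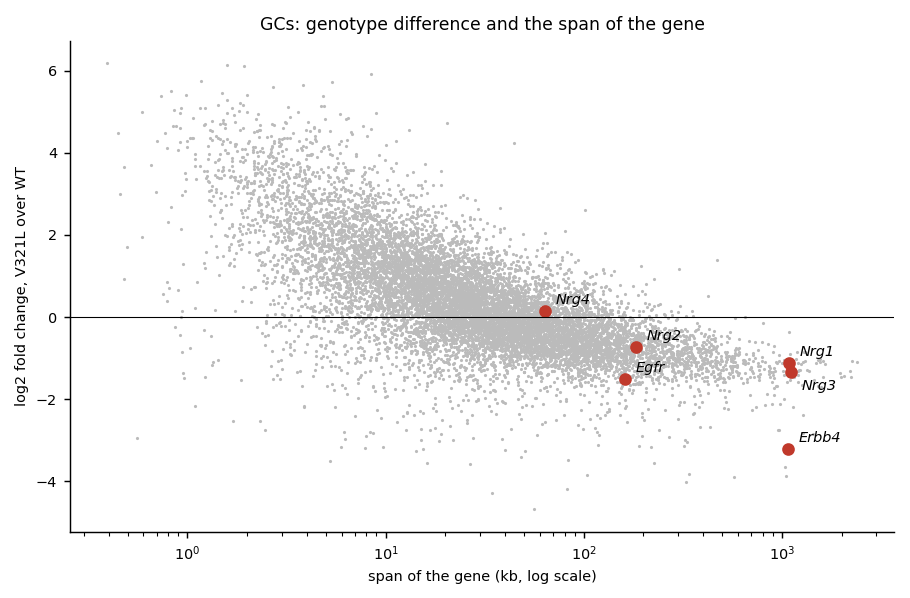
Log2 fold change of V321L over WT GCs against the span of the gene in kb (log scale), 1 grey point per gene tested, with the 6 tested neuregulin and ErbB genes in red. Short genes lie mostly above 0 and long genes below, and *Nrg1*, *Nrg2*, *Nrg3* and *Nrg4* lie inside the band of genes of their length.

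Scaling bears on the size of these values. With library sizes in place of TMM, the edgeR scaling that assumes most genes do not change, the median over all genes rose from 0.11 to 0.57 and the share of called GC genes that were higher from 54.8% to 75.6%. *Nrg1* in GCs was then at -0.66, *Nrg3* at -0.87 and *Nrg2* at -0.27, all still called.

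Over all 7 classes with enough nuclei, 27 pairs of gene and class could be tested of 56, and 15 were lower in V321L mice, 1 higher and 11 not called. Of all genes tested, between 19.7% (OPCs) and 70.7% (GCs) were called in a class. Between 6.37% and 32% were lower in V321L mice and between 13.4% and 38.7% higher, again from OPCs to GCs. Of the genes over 500 kb tested in a class, 73.6% were lower in V321L astrocytes, 65.0% in other excitatory neurons, 59.0% in GABAergic neurons, 52.9% in oligodendrocytes, 31.5% in microglia and 21.6% in OPCs.

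In GABAergic neurons 34.7% of all genes were called, 15.1% as lower and 19.6% as higher, and 2 of 5 genes here, both lower. *Nrg3* was at 6597, 7701, 6860.4 and 7515 CPM in WT and 4262, 4660.5, 3795 and 4706 CPM in V321L mice (log2 fold change -0.78 ± 0.15, edgeR, adjusted p = 6.97e-04), and with nuclei thinned to 1000 UMIs it was at -0.21 and not called. *Erbb4* had a log2 fold change of -0.49 ± 0.18 (edgeR, adjusted p = 0.0383), and WT M1, at 8884 CPM, lay inside the V321L range of 7568 to 10617 CPM. That call was lost with library sizes in place of TMM (-0.29, adjusted p = 0.19) and when WT F1 or M2 or V321L F1, M1 or M2 was left out. *Nrg1* (-0.19 ± 0.26), *Nrg2* (-0.00 ± 0.22) and *Egfr* (0.12 ± 0.34) were not called. In MGE type neurons 24.6% of genes were called (10.2% lower, 14.4% higher) and *Nrg3* was lower (-0.92 ± 0.16, edgeR, adjusted p = 4.41e-04; -0.43 and not called after thinning).

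In CGE type neurons, where 17.6% of genes were called (7.2% lower, 10.4% higher), *Egfr* was higher (1.25 ± 0.41, edgeR, adjusted p = 0.0376). It was at 103, 46.9, 186 and 117 CPM in WT and 184, 351, 186 and 128 CPM in V321L mice, from 4 to 20 UMIs per mouse, and the groups overlapped. DESeq2 did not call it (adjusted p = 0.08), and the call was lost without any one of WT F1, F2 or M2 or V321L F1, F2 or M1.

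In other excitatory neurons 50.8% of all genes were called, 24.3% as lower and 26.5% as higher, and 2 of 4 here, both lower. *Nrg3* was at 9608 to 10974 CPM in WT and 5590.4 to 6433 CPM in V321L mice (-1.22 ± 0.17, edgeR, adjusted p = 2.27e-04), and in CA3 type neurons, where 46.5% of genes were called (20% lower, 26.5% higher), it had a log2 fold change of -0.87 ± 0.16 (edgeR, adjusted p = 5.39e-04). *Nrg4* (-0.88 ± 0.31, edgeR, adjusted p = 0.0348) rested on 7 to 19 UMIs per mouse, and DESeq2 did not call it (adjusted p = 0.1). With library sizes it was at -0.41, and it lost its call without WT F1 or M1 or V321L F2, M1 or M2. *Nrg1* was not called (1.33 ± 0.75, edgeR, adjusted p = 0.16), with 268, 622, 203 and 186 CPM in WT and 259, 1603, 2369 and 193 CPM in V321L mice. V321L F2 and M1 stood above the other 6 mice.

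In astrocytes or radial glia 43.8% of all genes were called, 18.4% as lower and 25.4% as higher, and 3 of 3 here, all lower. *Erbb4* was at 234, 311, 258 and 366 CPM in WT and 155, 62.9, 118 and 73.1 CPM in V321L mice (-1.38 ± 0.29, edgeR, adjusted p = 5.68e-04). *Egfr* (-0.63 ± 0.24, edgeR, adjusted p = 0.0375) did not overlap between groups but lost its call in DESeq2 (adjusted p = 0.16), without WT F1 and without V321L F1, M1 or M2. *Nrg3* (-2.80 ± 0.51, edgeR, adjusted p = 1.39e-04) was at 339 to 1723 CPM in WT and 6.99 to 205 CPM in V321L astrocytes. Of the 175 *Nrg3* UMIs in 324 WT astrocytes, 129 were in 10 nuclei, and free RNA held 1532 to 2347 CPM of *Nrg3* in WT and 205 to 329 CPM in V321L libraries. With doublets kept it was at -0.91 and not called (edgeR, adjusted p = 0.15).

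In oligodendrocytes, where 28.9% of all genes were called, 9.43% as lower and 19.4% as higher, *Erbb4* was at 4181, 5965 and 3761 CPM in WT and 1681, 1527, 1928 and 1533 CPM in V321L mice (-1.30 ± 0.18, edgeR, adjusted p = 4.95e-05). The groups did not overlap, but with classes taken from clusters the difference was -0.18 and not called (edgeR, adjusted p = 0.68). WT M1 had fewer than 10 oligodendrocytes and was left out. *Erbb3* was the 1 gene called higher (1.82 ± 0.62, edgeR, adjusted p = 0.0351), at 44.5, 27.2 and 56.1 CPM in WT and 197, 113, 108 and 118 CPM in V321L mice. The WT values rest on 1, 1 and 2 UMIs, and the ratio of summed counts was 3.11 with an exact 95% counting interval of 1.17 to 11.7. DESeq2 (adjusted p = 0.0782) and the fits without any one WT mouse did not call it. *Erbb3* spans 22.1 kb, and of the oligodendrocyte genes under 100 kb 29.4% were higher and 3.16% lower. Their median log2 fold change was 0.52, and the part of length was not tested. *Nrg3* was not called (-0.70 ± 0.79).

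In OPCs, where 19.7% of all genes were called, 6.37% as lower and 13.4% as higher, *Nrg1* was at 767, 837, 1217 and 1537 CPM in WT and 502, 283, 616 and 245 CPM in V321L mice (-1.15 ± 0.28, edgeR, adjusted p = 0.00362). *Erbb4* was at 3714 to 6654 CPM in WT and 2552 to 2924 CPM in V321L OPCs (-0.58 ± 0.15, edgeR, adjusted p = 0.00512). Neither pair of groups overlapped. *Nrg3* (-0.47 ± 0.19) and *Nrg2* (-0.75 ± 0.38) were not called.

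In microglia, where 25.8% of all genes were called, 8.09% as lower and 17.7% as higher, *Nrg1* (-2.22 ± 1.07) and *Nrg3* (-2.29 ± 0.99) were not called. Without V321L M2 *Nrg3* was at -4.33 and called (edgeR, adjusted p = 1.88e-05). Both ligands rested on few microglia, since 34 of the 35 WT *Nrg1* UMIs and 116 of the 147 WT *Nrg3* UMIs were in 10 nuclei.

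Whether a difference in a class differed from that in GCs was tested for 20 pairs by a two-sided exact permutation of genotypes over mice. None passed after adjustment and 1 had an unadjusted p under 0.05. That pair was *Nrg2* in other excitatory neurons, whose effect exceeded that in GCs by 0.95 on the log2 scale (exact p = 0.0286, the smallest 4 against 4 mice allow; adjusted p = 0.245). Calls in one class and not in another therefore do not show that the classes differ. Nor do these tests show that classes are alike, since a pair passes only if most of the 20 reach the smallest p.

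The share of nuclei with a UMI was compared after each nucleus was thinned to 1000 UMIs, which left out 22.8% of WT and 1.01% of V321L GCs. *Nrg3* was seen in 99.8% ± 0.0951 of WT and 95.9% ± 1.73 of V321L GCs (SD, n = 4), and *Nrg1* in 35.5% ± 2.77 and 30.1% ± 3.98. *Erbb4* was seen in 1.08% ± 0.565 of WT and 0.301% ± 0.180 of V321L GCs, and in 84.5% ± 7.56 and 87.6% ± 5.10 of GABAergic neurons. Without thinning, *Nrg1* was seen in 44.8% of 6261 WT and 55.3% of 3759 V321L GCs, the opposite order. Of 16 exact permutation tests none passed after adjustment, and 4 reached the smallest p of 0.0286 (adjusted p = 0.114), for *Nrg3*, *Egfr* and *Erbb4* in GCs and *Nrg3* in GABAergic neurons. A test can pass here only if most of the 16 reach that p, so no conclusion is drawn from the lack of a pass.

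The genes around the pathway were counted in GCs by lists, beside the 70.7% of all genes called. Of 10 proteases that cut neuregulins 4 were higher and 2 lower in V321L GCs. The γ-secretase subunits *Psenen* (4.22 ± 0.33, from 1.24 to 9.38 CPM in WT to 62.2 to 71.3 CPM in V321L mice) and *Aph1a* (1.16 ± 0.20) were higher. The sheddases *Adam10* (-0.85 ± 0.13) and *Adam17* (-0.45 ± 0.14) were lower, and the CPM of *Adam17* overlapped between groups. *Psenen* spans 1.76 kb and *Adam10* 101 kb.

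Of 39 adaptors and effectors 8 were higher and 18 lower, among them the transcription factor gene *Jun* (1.65 ± 0.17) and the small GTPase gene *Hras* (3.95 ± 0.46) as higher and *Sos1* (-1.10 ± 0.10), a Ras exchange factor, as lower. Of 12 negative regulators 2 were higher, *Spry1* (1.41 ± 0.33) and *Errfi1* (0.61 ± 0.15), and 8 lower, led by the ubiquitin ligase *Cblb* (-1.41 ± 0.12) and *Spred1* (-1.46 ± 0.15). Of 10 partners at the synapse 2 were higher, among them *Dlg4* (0.75 ± 0.10), which encodes PSD-95, and 7 lower, with *Cntnap2* (-1.46 ± 0.11) and *Magi2* (-1.12 ± 0.12) at the smallest adjusted p. Of the other EGF family ligands 3 were measured and none was called. In these lists the named higher genes span between 1.76 and 28.3 kb and the named lower genes between 50.1 and 2241 kb.

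GCs themselves were not uniform. GCs with a UMI of *Penk*, the proenkephalin gene that marks a minority of GCs, were compared with the others within each mouse. There were 320 *Penk*+ GCs in the 8 mice, and 6.36% of all genes were called, 2.36% as higher in *Penk*+ GCs and 3.99% as lower. A *Penk* UMI was seen in 1.07% of WT and 6.73% of V321L GCs, at median depths of 1648 and 3973 UMIs, where free RNA alone would give 0.0836% and 0.580%. It was seen in 0 of 324 WT astrocytes, which allows a share of up to 0.926%, and in 1.42% of V321L astrocytes, at median depths of 882 and 1470 UMIs. Of 4 genes tested here, *Nrg1* was higher, *Nrg3* lower and *Nrg2* and *Nrg4* not called.

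*Nrg1* was at 2776, 2268, 3907 and 1665 CPM in *Penk*+ GCs of WT mice, against 791, 868, 678 and 679 CPM in their *Penk*- GCs. In V321L mice it was at 937, 1108, 1662 and 650.0 CPM against 456, 497, 503 and 359 CPM. It was higher in *Penk*+ GCs in 8 of 8 mice, by 1.81 to 5.77 times, with a mean log2 difference of 1.47 ± 0.19 (SE over 8 mice; two-sided exact sign-flip test, p = 0.00781, the smallest that 8 mice allow). The edgeR fit with mouse as a block gave 1.30 ± 0.10 (adjusted p = 1.17e-33), an SE below the spread of the mice. In GCs with no GABAergic marker UMI the step was smaller, 1.23 to 3.45 times, and still in one direction in 8 of 8 mice (1.10 ± 0.19 over mice, and 0.88 in edgeR, called). WT M1 then fell from 5.77 to 2.32 times and WT M2 from 2.45 to 1.23 times. In GCs matched on UMIs per nucleus the fit gave 1.37 and was called. *Nrg3* was lower in 8 of 8 mice, with a log2 fold change of -0.47 ± 0.10 (edgeR, adjusted p = 1.80e-04) and ratios of 0.715 to 0.889, and -0.30 ± 0.04 as a mean over mice. OPC markers summed to 95.7 CPM in *Penk*+ and 42.1 CPM in *Penk*- GCs and GABAergic markers to 69.1 and 48.4 CPM, and their part in the result was not tested.

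The same held for GCs with a UMI of *Sorcs3*, a sorting receptor gene that marks a GC cluster of this study. Such a UMI was seen in 9.79% of WT and 12.1% of V321L GCs, where free RNA alone would give 0.359% and 0.357%. It was not particular to GCs, being seen in 10.9% of WT and 11.5% of V321L oligodendrocytes. Their median depths were lower, at 750 and 1095 UMIs. Microglia were at 2.56% in WT and 1.98% in V321L mice, and astrocytes at 0.617% and 0%. Here 13.4% of all genes were called, 6.83% as higher and 6.52% as lower. *Nrg1* was at 2127, 2281, 2101 and 1978 CPM in *Sorcs3*+ GCs of WT mice against 576, 685, 593 and 525 CPM in *Sorcs3*- GCs, and at 934, 1083, 1530.3 and 799 CPM against 425, 462, 439 and 318 CPM in V321L mice. The 2 sides did not overlap in either genotype. The ratios were 2.20 to 3.77, with a mean log2 difference of 1.605 ± 0.113 (SE over 8 mice; two-sided exact sign-flip test, p = 0.00781). The edgeR fit with mouse as a block gave 1.63 ± 0.05 (adjusted p = 9.85e-94), again with an SE below the spread of the mice. In GCs with no GABAergic marker UMI the ratios were 2.02 to 3.83.

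*Nrg3* was slightly lower in *Sorcs3*+ GCs in 8 of 8 mice (-0.11 ± 0.03, edgeR, adjusted p = 0.00569) and was not called within either genotype alone. *Erbb4* was called higher (2.09 ± 0.21, edgeR, adjusted p = 3.12e-17), with an SE below the spread of the mice. Its mean log2 difference was 1.76 ± 1.17 over WT mice and -0.379 ± 1.56 over V321L mice (SD, n = 4 each). The *Erbb4* call rested on few nuclei. WT F2 held 123 *Erbb4* UMIs in 230 *Sorcs3*+ GCs, 101 of them in 1 nucleus, and V321L M1 and M2 held 0. DESeq2 did not call it (1.21, adjusted p = 0.18), and without WT F2 or WT M2 it had too few counts for a test. OPC markers summed to 113 CPM in *Sorcs3*+ and 34.6 CPM in *Sorcs3*- GCs, and their part in these values was not tested.

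**Figure D5:**
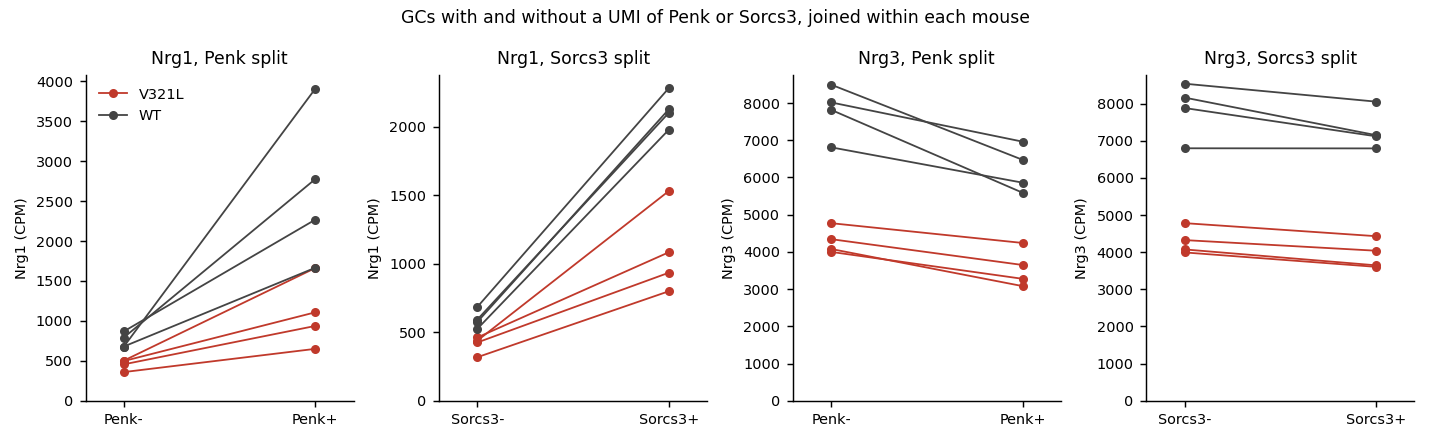
CPM of *Nrg1* and *Nrg3* in GCs without and with a UMI of *Penk* or *Sorcs3*, with the 2 values of each mouse joined, WT in grey and V321L in red. Every *Nrg1* line rises, and the *Nrg3* lines fall or are flat.

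The steps of *Nrg1* were set side by side for the genotypes. For *Sorcs3*, the mean log2 difference over WT mice was 1.84 ± 0.0781 (SD, n = 4) and over V321L mice 1.37 ± 0.296, and for *Penk* 1.75 ± 0.562 and 1.19 ± 0.375. Of 7 such comparisons by two-sided exact permutation none passed after adjustment (*Nrg1* p = 0.0571, adjusted p = 0.133, and p = 0.143, adjusted p = 0.25). With 0.0286 as the smallest p, a comparison passes only if most of the 7 reach it, so no conclusion is drawn.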

How the data were processed

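RNA and accessible chromatin were measured in the same nuclei in 8 libraries, 1 per mouse. The deposited matrices hold unnormalized counts, RNA UMIs per gene and ATAC counts per peak for all barcodes, which the authors made with Cell Ranger. Their processing notes also name Seurat, Signac and build mm10, without versions, and peaks were called per library. RNA UMIs over all barcodes came to between 4326426 and 23582057 per library, and to between 2593874 and 7492018 in the nuclei kept.

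Barcodes with more than 500 UMIs, more than 250 genes, at least 500 ATAC counts, and below the upper limits on UMIs, genes and mitochondrial share in the study's methods were kept, without those whose Scrublet score (scanpy 1.11.5) exceeded the library mean by 2 SD. Nuclei in which 1 marker list clearly led gave each class a mean profile over the marker genes, and every nucleus entered the class whose profile made its marker UMIs most likely, if the Poisson log likelihood led the next class by at least 3 and its list had at least 2 UMIs. This gate was set after the counts had been seen, and 1730 nuclei entered none (12.8% of WT, 7.40% of V321L nuclei). UMIs were summed per mouse and class, for mice with at least 10 nuclei, and tested with edgeR 4.0.16 in R 4.3.3 (TMM, its low-count filter, Benjamini-Hochberg adjustment over all genes tested). DESeq2 1.42.0 was the second tool. Values paired within mice were compared by exact sign-flip tests and genotypes by exact permutation, whose smallest p is 0.0286 for 4 against 4 mice. The p-values measure the spread between mice, with exceptions among the edgeR fits with mouse as a block. For *Nrg1* in *Penk*+ and *Sorcs3*+ GCs and *Erbb4* in *Sorcs3*+ GCs, those fits gave a smaller SE than the differences between mice. Free RNA was read from barcodes with at most 100 UMIs.

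On simulated GC counts of 12155 genes, 102 of 200 genes changed by 1 on the log2 scale were recovered with 5 false calls. For the *Penk* comparison (8646 genes) 52 of 200 were recovered with 1 false call. Both simulations gave every gene a dispersion of 0.05 and raised as many genes as they lowered. Between genotypes 70.7% of GC genes were called, so the simulation does not show how many false calls that comparison holds. Named genes were the 8 genes, the 3 nearest genes of each across classes, and the 2 genes of smallest adjusted p in each direction per pathway list, some of which are not reported here. The genes, lists and tests were chosen with earlier results of these data known. Alternatives covered scaling, tool, filters, classes, doublets, free RNA, depth and each mouse left out.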

Additional observations from a re-analysis of the deposited data

Results flagged for a closer look

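In 4 of 49 groups of 4 mice, 1 mouse stood apart from the other 3 by Dixon's test at the 95% level, which chance alone does in about 1 of 20 groups. In V321L GABAergic neurons, *Nrg1* was at 434 CPM in F2 and between 201 and 220.4 CPM in the others. In V321L oligodendrocytes, *Erbb3* was at 197 CPM in F1 and between 108 and 118 CPM in the others. In V321L microglia, M2 held 285 CPM of *Nrg1*, where the others lay between 0 and 48.3 CPM, and 906 CPM of *Nrg3*, where the others lay between 19.1 and 161 CPM.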

How the results depend on the processing

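*Nrg1* in GCs kept its direction and its call in every alternative run, between -1.25 and -0.66, and between -1.25 and -0.99 with each mouse left out in turn. The number of the 8 genes called in GCs was 5 with each mouse left out and 3 of 3 tested after thinning to 1000 UMIs. Over all classes it was 16 as reported, between 12 and 15 with each mouse left out, and 8 after thinning, when oligodendrocytes and microglia could not be tested. In *Sorcs3*+ GCs 3 genes were called as reported, between 2 and 3 with each mouse left out, and 1 in V321L mice alone. For *Penk*+ GCs the count was 2 with each mouse left out. Mice that share a number in the labels did not deviate together (correlations 0.0448 for F1, 0.266 for F2, -0.0945 for M1 and 0.0386 for M2), so the numbers were not taken as pairs. With a replicate block 5 of the genes were called in GCs, 12 over all classes, and *Nrg1* in GCs was at -1.12.

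Directions that changed belonged to differences that were not called. *Nrg4* in GCs ranged from -0.085 to 0.30 with each mouse left out. In GABAergic neurons *Egfr* was at -0.067 without the low-count filter, -0.76 without upper limits and between -0.36 and 0.46 with each mouse left out. *Nrg1* there was at 0.0076 with library sizes and 0.42 after thinning. *Nrg2* there was at 0.19 with library sizes, 0.020 in DESeq2, 0.027 with the replicate block, 0.028 with a stricter gate, 0.0013 with doublets kept, 0.073 with free RNA subtracted and between -0.23 and 0.13 with each mouse left out. *Nrg3* in oligodendrocytes was at 0.48 with doublets kept. In *Penk*+ GCs *Nrg2* was at 0.089 in matched GCs, 0.24 in WT alone, 0.10 in DESeq2 and between -0.14 and 0.030 with each mouse left out, and *Nrg4* between -0.38 and 0.075. In *Sorcs3*+ GCs *Nrg2* was at -0.14 without the filter, and *Nrg4* at 0.66 in WT alone and between -0.30 and 0.15 with each mouse left out. The cause of these changes was not tested.

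Depth limits *Erbb2*, *Erbb3* and *Nrg4*, which had few UMIs in most classes. GCs with no GABAergic marker UMI and the sign-flip tests on *Penk*+ and *Sorcs3*+ GCs were chosen after seeing the data. Leaving out a mouse brings the exact tests on shares and class order nearer to the smallest p they can give, so those counts of 0 say nothing of stability.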
